A study of Macaca fascicularis with 64 samples.

Results

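Pancreatic polypeptide cells (PP-cells) are the endocrine cells of the islet of Langerhans that make pancreatic polypeptide, the product of PPY, a hormone of the neuropeptide Y family that is released after meals and restrains appetite and exocrine secretion. They are rare in the tail of the pancreas and more frequent in its head, and they share many genes with the glucagon-producing α-cells and the somatostatin-producing δ-cells. The 7 genes described here, UGT2B20, TMEM144, KCNJ8, CCDC198, PPP1R17, ROR2 and CYP4X1, were taken from 21041 macaque genes because their unique molecular identifier (UMI) counts were higher in PP-cells than in the other islet cells of these same data. Their excess in PP-cells is therefore given as a description and carries no test.

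The study profiled single islet cells of 16 non-diabetic cynomolgus monkeys (Macaca fascicularis), 8 young and 8 old, with 4 females and 4 males at each age and no treatment in any group. Islets were picked by hand from the tail of the pancreas, dissociated and cleared of debris by cell sorting, and single cells were drawn by mouth pipette and sequenced with a protocol that counts mRNA molecules by UMI. Each monkey gave 4 libraries and was handled on its own day, so the day and the monkey cannot be told apart. Monkeys are named by age, sex and number, so that OF2 is old female 2 and YM4 is young male 4.

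Of 6141 barcoded cells, 5908 had over 800 genes and over 10000 UMIs, and each was typed by the highest of GCG, INS, SST and PPY. This gave 74 PP-cells, 4503 α-cells, 1219 β-cells and 112 δ-cells. The paper also filtered cells by mapping rate, typed them by clustering and set some apart as other cells. None of this was done here, and the numbers of cells differ from the paper's. Any non-endocrine cell that was kept received a hormone type. The UMIs per monkey ranged from 21982838 to 35850398, and the median UMIs of macaque genes per cell were 45772 in PP-cells, 64894 in α-cells, 74425 in β-cells and 43776 in δ-cells. The 64 libraries drew on 96 cell barcodes, of which 93 occurred in every library, so a cell is identified by its library and barcode together. Doublets were not called.

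PP-cells came from 11 monkeys, but 33 of the 74 came from OF2. The others were 8 cells in OF1, 8 in YM4, 6 in YM1, 6 in OM4, 5 in OM2, 4 in YM2 and 1 each in OF3, OM3, YF1 and YF4. Levels per monkey, in CPM (UMIs of a gene scaled to a common total of UMIs of macaque genes), were formed from summed counts where a monkey had at least 5 cells of a type, which left 6 monkeys for PP-cells (4 old, 2 young and both of these male), 16 for α- and β-cells and 11 for δ-cells. The PP-cell share of retained cells was 1.86% ± 3.04 in old monkeys and 0.670% ± 0.833 in young monkeys (SD, n = 8 each), a difference within the spread (p = 0.365, two-sided exact permutation test), and without OF2 the old mean was 0.834%.

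The PP label was set beside markers other than the typing hormone. The list was chosen with earlier results of these data known, and the fit with PP-cells after seeing the data. The values therefore describe the label and are no independent check of it. PPY stood at 92331 ± 23652 CPM (SD, n = 6) in PP-cells and at a mean of at most 973 CPM in the other types, a gap that the typing fixes. In a fit of all 4 types with the monkey in the model, 7 of 14 genes on a PP-cell marker list, with PPY left out, were higher in PP-cells than in the mean of the other types (edgeR's quasi-likelihood test, Benjamini-Hochberg adjusted p under 0.05), beside 4.24% of 12899 genes called higher and 8.23% called in either direction. Among those 7, FGB, the fibrinogen β chain, was at 480 CPM in PP-cells against 62.1 in α-cells, 6.10 in β-cells and 22.3 in δ-cells. The transcription factor ETV1 was at 204 ± 120 CPM (SD, n = 6) in PP-cells and 115 ± 80.1 CPM (SD, n = 11) in δ-cells, with spreads that overlap, against 39.3 CPM in α-cells and 36.6 in β-cells. Of all 15 listed genes, 8 had their highest mean in PP-cells and 5 in δ-cells. The list also marked δ-cells. In a fit without PP-cells, 8 of 10 tested genes were higher in δ- than in α-cells (2 lower). Against β-cells 7 were higher in δ-cells (1 lower), beside 4.90% and 5.58% of all genes called higher (edgeR). CARTPT, AQP3 and LMO3, also on that list, were at 2.40, 0.565 and 0.560 CPM in PP-cells, and CARTPT was at 76.8 CPM in δ-cells.

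The second hormone was GCG in 71 of the 74 PP-cells, and GCG reached 34789 ± 14526 CPM (SD, n = 6) in them. This was not particular to PP-cells. GCG was second also in 1218 of 1219 β-cells and 104 of 112 δ-cells, at means of 22849 and 25719 CPM. In 16 of the 74, PPY was under 2 times the second hormone. Of the 74, 2 cells typed as PP carried more than 2000 CPM of stellate cell and pericyte markers, at 4221 CPM in a cell of OF1 and 9731 CPM in the single cell of YF1, while the other PP-cells were at 365 CPM or below. The summed stellate and pericyte list ran from 0 to 1007 CPM over the 6 monkeys in PP-cells (highest in OF1, with 3 of its 13 genes at 0 in PP-cells), and from 3.20 to 268 CPM in α-cells. Their part in the levels below was not tested beyond leaving out the 2 cells. Acinar markers ran from 0 to 316 CPM in PP-cells, also highest in OF1, and endothelial markers from 0 to 35.4 CPM.

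UGT2B20 encodes a UDP-glucuronosyltransferase, an enzyme that couples glucuronic acid to steroids and other lipophilic compounds. A UMI of it was found in 47 of 74 PP-cells (63.5%, exact 95% interval 51.5 to 74.4). Its level in PP-cells was 113 CPM in OF1, 114 in OF2, 197 in OM2, 19.9 in OM4, 164 in YM1 and 344 in YM4, a mean of 159 ± 109 CPM (SD, n = 6). All 6 monkeys had it above their own α- and β-cells, and the mean was 256 times that of the α-cells and 155 times that of the β-cells of those monkeys. OM4 stood low, with a UMI in 2 of 6 cells, and YM4 stood high through 3 of its 8 cells, which held 93, 47 and 20 UMIs. Outside the 6 monkeys, the single PP-cell of YF4 held 71 UMIs of UGT2B20.

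In the other types UGT2B20 was near the floor. It was at 0.799 ± 0.620 CPM in α-cells and 1.99 ± 3.42 CPM in β-cells (SD, n = 16 each), and in δ-cells 10 of 11 monkeys had no UMI, the exception being 3 UMIs in 1 cell of OM2. A UMI was found in 1.91% of α-cells, 3.94% of β-cells and 0.893% of δ-cells, and 45 of the 86 α-cells with UGT2B20 held a single UMI. With every cell thinned to 10000 UMIs the share was 45.9% in PP-cells, 0.582% in α-cells, 0.893% in δ-cells and 1.48% in β-cells. PP-cells thus stayed highest at equal depth. The δ-cell share rested on 1 of 112 cells at both depths, so it gives no order against α-cells. The level of UGT2B20 is uncertain where near-identical UGT2B genes exist, since only uniquely mapped reads were counted.

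KCNJ8 encodes Kir6.1, a pore subunit of ATP-sensitive potassium channels that is best known from smooth muscle and pericytes. A UMI was found in 46 of 74 PP-cells (62.2%, exact 95% interval 50.1 to 73.2). The level was 63.7 CPM in OF1, 152 in OF2, 115 in OM2, 162 in OM4, 143 in YM1 and 59.5 in YM4, a mean of 116 ± 44.9 CPM (SD, n = 6). The 6 monkeys thus lay within a narrow range for KCNJ8, and no single cell held more than 11.5% of its UMIs in PP-cells. KCNJ8 was above 0 also in the other types, at 2.52 ± 2.41 CPM in α-cells, 4.02 ± 5.88 CPM in β-cells (SD, n = 16 each) and 43.4 ± 39.5 CPM in δ-cells (SD, n = 11). Of the 2 PP-cells with stellate and pericyte markers, 1 held 1 UMI of KCNJ8 and the other none, and without both cells the PP-cell mean was 119 CPM.

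PPP1R17 encodes an inhibitor of protein phosphatases that was first described as a substrate of the cGMP-dependent kinase in cerebellar Purkinje cells. A UMI was found in 45 of 74 PP-cells (60.8%, exact 95% interval 48.8 to 72.0), with a median of 12 UMIs in the cells that had any. The level was 63.7 CPM in OF1, 175 in OF2, 278 in OM2, 151 in OM4, 326 in YM1 and 221 in YM4, a mean of 202 ± 93.7 CPM (SD, n = 6). All 6 cells of YM1 held it, against 4 of 8 cells in OF1. PPP1R17 was also present in α-cells, where 657 of 4503 cells (14.6%) held a UMI and 1 cell held 201.

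CYP4X1 encodes a cytochrome P450 of the fatty acid hydroxylase family. A UMI was found in 23 of 74 PP-cells (31.1%, exact 95% interval 20.8 to 42.9). The level was 117 CPM in OF1, 35.4 in OF2, 38.3 in OM2, 88.3 in OM4, 0 in YM1 and 2.13 in YM4, a mean of 46.9 ± 47.0 CPM (SD, n = 6). The 4 old monkeys lay above both young monkeys, as for 5.56% of 6568 genes (13.7% without overlap in either direction). In α- and β-cells the means were 0.296 and 0.911 CPM, and a UMI was found in 0.933% and 1.80% of the cells.

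TMEM144, a transmembrane protein grouped with carbohydrate transporters, CCDC198, a coiled-coil protein, and ROR2, a receptor tyrosine kinase for WNT5A, were found in fewer PP-cells. TMEM144 was found in 14 of 74 cells, CCDC198 in 8 and ROR2 in 6. TMEM144 was at 41.1 CPM in OF1, 74.7 in OF2, 5.38 in YM1 and 0 in OM2, OM4 and YM4. CCDC198 was at 124 CPM in OF2, 53.8 in YM1 and 0 in the other 4 monkeys, and ROR2 was at 43.4 CPM in OF2, 19.2 in OM2 and 0 in the other 4.

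The levels of these 3 genes rested on single cells. A cell of OF2 held 93 of the 137 TMEM144 UMIs in PP-cells (67.9%), and without it the pooled level fell from 35.6 to 11.5 CPM. Another cell of OF2 held 152 of 253 CCDC198 UMIs (60.1%), and the pooled level without it was 26.5 in place of 65.8 CPM. A further cell of OF2 held 42 of 69 ROR2 UMIs (60.9%), and the pooled level without it was 7.09 in place of 17.9 CPM. For UGT2B20, KCNJ8, PPP1R17 and CYP4X1 the highest cell held 15.6%, 11.5%, 7.91% and 11.3% of the UMIs. The cell richest in TMEM144 was close to the typing boundary, with 1566 PPY UMIs and 1433 GCG UMIs, and had no UMI of the other 6 genes.

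**Figure D1:**
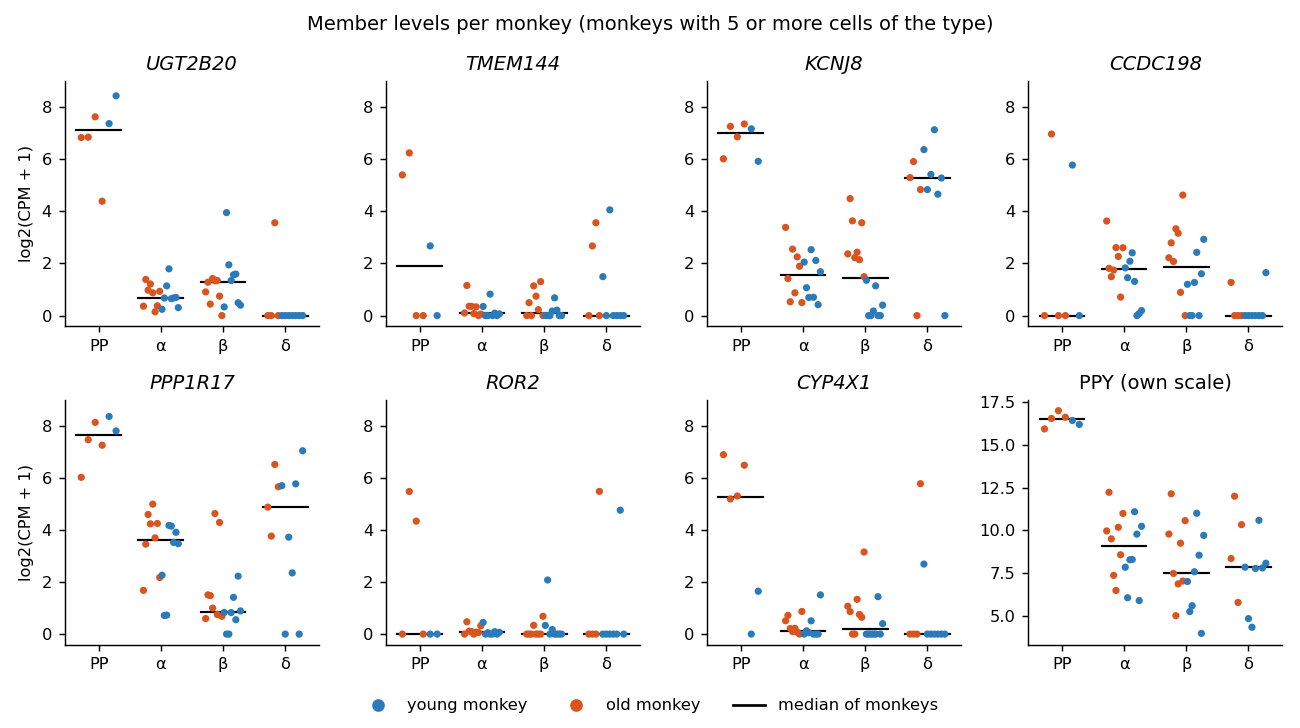
Levels of the 7 members and of PPY as log2(CPM + 1) in PP-, α-, β- and δ-cells, with each dot 1 monkey that had at least 5 cells of the type and each line the median of the monkeys. UGT2B20, KCNJ8 and PPP1R17 lie above 0 in all 6 monkeys in PP-cells, while CCDC198 and ROR2 lie at 0 in 4 of the 6, and KCNJ8 and PPP1R17 reach up in δ-cells.

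The order of the types differed between the members. For UGT2B20 the mean was highest in PP-cells, and the α-, β- and δ-cells did not differ from each other beyond their spread. For KCNJ8, PPP1R17, TMEM144, ROR2 and CYP4X1 the δ-cells came second, at 43.4, 39.2, 3.06, 6.32 and 5.37 CPM, although for TMEM144, ROR2 and CYP4X1 this rested on UMIs in 5, 3 and 3 of the 112 δ-cells. For CCDC198 the β-cells came second at 4.38 ± 5.94 CPM then the α-cells at 2.89 ± 2.81 CPM (SD, n = 16 each), with the δ-cells last at 0.323 CPM. Within the PP-cells of the 6 monkeys the spread of CCDC198, 29.6 ± 51.0 CPM, covered its mean in the other types.

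The types that the choice of genes did not set against each other, α-, β- and δ-cells, were compared in 43 sums of 16 monkeys with the monkey in the model (edgeR's quasi-likelihood test, p adjusted over 12032 genes). Of the 7 members, 4 had enough counts to be tested: UGT2B20, KCNJ8, CCDC198 and PPP1R17. PPP1R17 ran from 0.641 to 30.7 CPM in α-cells (median 11.2), from 0 to 23.7 in β-cells (median 0.815) and from 0 to 130 in δ-cells (median 28.3). It was lower in β- than in α-cells by a log2 fold change of -2.90 ± 0.50 (SE, adjusted p = 9.79e-06, edgeR), the only call among the 4 tested members, a share no larger than the 27.0% of all genes called in either direction (16.8% called lower). It was higher in δ- than in α-cells by 2.25 ± 0.56 (adjusted p = 0.00255, edgeR) and higher in δ- than in β-cells by 5.15 ± 0.61 (adjusted p = 1.04e-08, edgeR). The δ-cell level of PPP1R17 rested on few cells. A UMI was found in 13 of 112 δ-cells (11.6%), against 14.6% of α-cells. One δ-cell held 61 of the 213 UMIs in δ-cells (28.6%). The β-cell range of PPP1R17 was led by OM1 and OM3 at 23.7 and 18.5 CPM, and every other monkey was at 3.67 CPM or below.

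KCNJ8 was the second member that differed. It was higher in δ- than in α-cells by a log2 fold change of 4.24 ± 0.70 (SE, adjusted p = 1.06e-05) and higher in δ- than in β-cells by 4.12 ± 0.77 (adjusted p = 8.38e-05, edgeR). With PPP1R17 it made 2 of 4 tested members called higher in δ-cells in each comparison, beside 4.90% of genes called higher against α-cells and 5.58% against β-cells. In either direction 25.1% and 22.2% of genes were called. The median log2 difference of all genes was -0.42 for δ- against α-cells and -0.33 for δ- against β-cells, and both members moved against it. In δ-cells KCNJ8 was at 0 in OM2 and YM3 and ran to 139 CPM in YF4.

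UGT2B20 and CCDC198 were not called in any of these 3 comparisons. For δ- against α-cells CCDC198 differed by -2.78 ± 1.22 (adjusted p = 0.0890, edgeR), and against β-cells by -2.97 ± 1.28 (adjusted p = 0.0886). Both passed the threshold without YM3 (adjusted p = 0.0292 and 0.0424), whose δ-cells held 1 UMI of CCDC198. UGT2B20 likewise became lower in δ-cells than in α-cells (adjusted p = 0.0259) and β-cells (adjusted p = 0.00894) without OM2, whose 3 UMIs were its only ones in δ-cells.

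The UMIs of members in each type were set against those of PPY, pooled over all monkeys. In PP-cells there were 17.8 UGT2B20 UMIs per 10000 PPY UMIs, in α-cells 9.15 and in β-cells 19.4. For KCNJ8 the numbers were 14.2 in PP-cells, 25.7 in α-cells, 61.9 in β-cells and 565 in δ-cells, and for PPP1R17 they were 20.7, 129, 56.4 and 489. The ratios of KCNJ8 and PPP1R17 were highest in δ-cells. For TMEM144 they were 4.08 in PP-cells, 2.26 in α-cells, 7.10 in β-cells and 41.3 in δ-cells. In the same order they were 2.06, 0.960, 1.45 and 103 for ROR2. For CCDC198 they were 7.54, 31.1, 92.0 and 6.89, and for CYP4X1 4.47, 3.36, 9.27 and 108. OF2, which had the most PP-cells, had 18 of the 41 α-cells with a TMEM144 UMI, each with at most 2 UMIs. The part of RNA released by PP-cells in any of these values was not tested.

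KCNJ8 belongs to a small family that can be described whole. ATP-sensitive potassium channels, which couple metabolism to membrane potential and so to hormone release, are built of a Kir6 pore subunit, Kir6.1 from KCNJ8 or Kir6.2 from KCNJ11, and a sulfonylurea receptor, SUR1 from ABCC8 or SUR2 from ABCC9. The channel of the β-cell is known to pair Kir6.2 with SUR1. KCNJ8 and ABCC9 are neighbouring genes in the macaque RefSeq annotation.

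KCNJ11 was listed at 0 in the PP-cells of all 6 monkeys. Over all 74 PP-cells 1 cell held KCNJ11, with 10 UMIs (1.35%, exact 95% interval 0.0342 to 7.30), against 67 of 1219 β-cells (5.50%, interval 4.28 to 6.93) and 90 of 4503 α-cells (2.0%, interval 1.61 to 2.45). KCNJ11 was thus sparse in every type, and its level in PP-cells relative to the other types could not be told at this depth (adjusted p = 0.177, edgeR). KCNJ11 was higher in β- than in α-cells by a log2 fold change of 1.59 ± 0.58 (SE, adjusted p = 0.0358, edgeR).

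ABCC8 was at 1514 ± 501 CPM in PP-cells (SD, n = 6), 1308 ± 422 in β-cells and 607 ± 326 in α-cells (n = 16 each) and 530 ± 271 in δ-cells (n = 11). It was higher in PP-cells than in the mean of the other types by a log2 fold change of 0.93 ± 0.20 (SE, adjusted p = 0.00168, edgeR), and all 46 PP-cells with KCNJ8 held ABCC8 as well. ABCC9 was at 2.06 CPM in OF1, 36.0 in OF2, 4.79 in OM2, 31.3 in OM4, 0 in YM1 and 12.8 in YM4. It was higher in PP-cells by 2.87 ± 0.94 (adjusted p = 0.0467, edgeR), so that 2 of the 3 other subunits were called higher, beside 4.24% of all genes, although the mean of ABCC9 in PP-cells, 14.5 CPM, lay below that in δ-cells. ABCC9 was also higher in δ- than in α-cells by 5.77 ± 0.79 (adjusted p = 3.13e-07, edgeR), where it reached 39.1 ± 38.4 CPM (SD, n = 11).

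Within PP-cells ABCC9 was found in 22 cells, and 18 of these also held KCNJ8. Pearson's r of log2(CPM + 1) between both genes, centred on the monkey, was 0.31 over 74 cells. In δ-cells KCNJ8 and ABCC9 were each found in 28 of 112 cells, and 8 cells held both. Of the 22 PP-cells with ABCC9, 12 came from OF2.

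**Figure D2:**
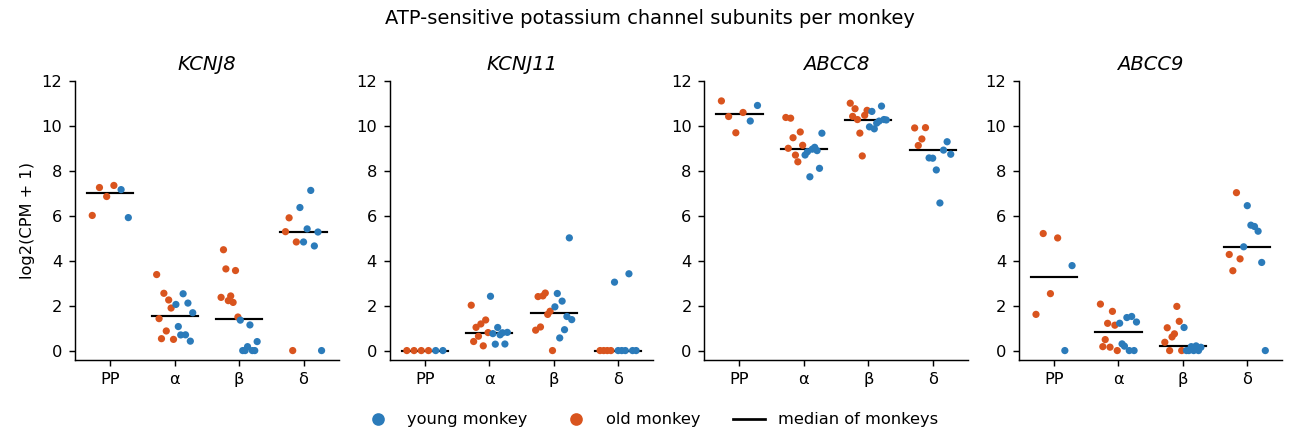
Levels of the 4 subunit genes of ATP-sensitive potassium channels as log2(CPM + 1), with each dot 1 monkey with at least 5 cells of the type and each line the median. KCNJ8 lies high in PP- and δ-cells, KCNJ11 lies at 0 in all 6 monkeys in PP-cells, ABCC8 lies above 0 in every monkey and type, and ABCC9 is at a mean of 39.1 CPM in δ-cells and 14.5 CPM in PP-cells.

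The families of the other members were read in the same way. Of the 28 other genes listed as UDP-glucuronosyltransferases or as UGDH, the enzyme that makes UDP-glucuronic acid, 5 were in the files and 3 were tested in the fit with PP-cells, and none of the 3 was called in that fit (edgeR). UGDH was at 42.6 ± 37.7 CPM in PP-cells (SD, n = 6) and 29.6 ± 9.93 in α-cells (n = 16). UGT8 was at 0 in the PP-cells of all 6 monkeys and at 28.5 ± 51.1 CPM in δ-cells (n = 11). Of the 11 other CYP4 genes, 8 were in the files and only CYP4V2 was tested, at 20.4 ± 9.75 CPM in PP-cells and 46.2 ± 23.7 in β-cells, with no call for PP-cells (adjusted p = 0.348, edgeR).

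Of 29 genes of the WNT5A-ROR and planar polarity pathway besides ROR2, 17 were tested in the fit with PP-cells and 1 was called in each direction, which is near the 4.24% of all genes called higher and the 8.23% called in either direction and so is no result about the pathway. ROR1, the other receptor of the ROR pair, was lower in PP-cells by a log2 fold change of -2.13 ± 0.52 (SE, adjusted p = 0.00551, edgeR), at 7.13 CPM against 35.2 in α-cells, 39.0 in β-cells and 27.8 in δ-cells. DVL3, a Dishevelled protein that relays WNT signals, was higher by 1.40 ± 0.42 (adjusted p = 0.0287, edgeR). The ligand gene WNT5A was listed at 0 in the PP-cells of the 6 monkeys and at a mean of 2.91 CPM in δ-cells. Other genes of the list with high levels in PP-cells were DAAM1 at 66.4 CPM, WNT4 at 46.9 CPM, CELSR2 at 34.8 CPM and CELSR3 at 26.4 CPM, none of them called.

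Of 16 genes for PP1 and PP2A catalytic subunits, their inhibitors and the cGMP-dependent kinases besides PPP1R17, 9 were tested in the fit with PP-cells and none was called (edgeR), with a median log2 difference of -0.25 beside -0.16 over all genes. Both kinase genes were low in PP-cells, with PRKG1 listed at 0 and PRKG2 at a mean of 1.24 CPM. The catalytic subunit genes PPP1CB and PPP1CC were at 230 ± 73.3 and 110 ± 54.7 CPM in PP-cells and at 240 ± 47.3 and 95.4 ± 35.1 CPM in α-cells. Among the other inhibitors PPP1R1A was at 30.8 CPM in PP-cells and 336 CPM in β-cells, and it was higher in β- than in α-cells by a log2 fold change of 4.31 ± 0.29 (SE, adjusted p = 2.43e-16, edgeR).

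The members were combined differently from one PP-cell to the next. Of the 74 cells, 4 had no member, 10 had 1, 21 had 2, 24 had 3, 12 had 4, 1 had 5, 2 had 6 and none had all 7. The mean was 2.55 members per cell, against 0.255 in α-cells, 0.307 in β-cells and 0.50 in δ-cells. At 10000 UMIs per cell the means were 1.77, 0.0921, 0.0940 and 0.375. At least 2 members were found in 60 PP-cells (81.1%), and at that fixed depth in 41 (55.4%), against 0.358% of α-cells and 3.57% of δ-cells.

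Of UGT2B20, KCNJ8 and PPP1R17, the 3 members found most often, 18 cells held all 3, 35 held 2, 14 held 1 and 7 held none. The cells of YM4 show how they parted: the 3 cells with 93, 47 and 20 UGT2B20 UMIs held no KCNJ8, and the cell with 26 KCNJ8 UMIs held 2 of UGT2B20. In OF1, 1 cell held 18 UGT2B20, 20 TMEM144, 22 KCNJ8, 16 PPP1R17 and 16 CYP4X1 UMIs. In OF2, the cell with 55 UMIs of KCNJ8 also held 19 of CCDC198, 17 of PPP1R17 and 12 of ROR2.

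**Figure D3:**
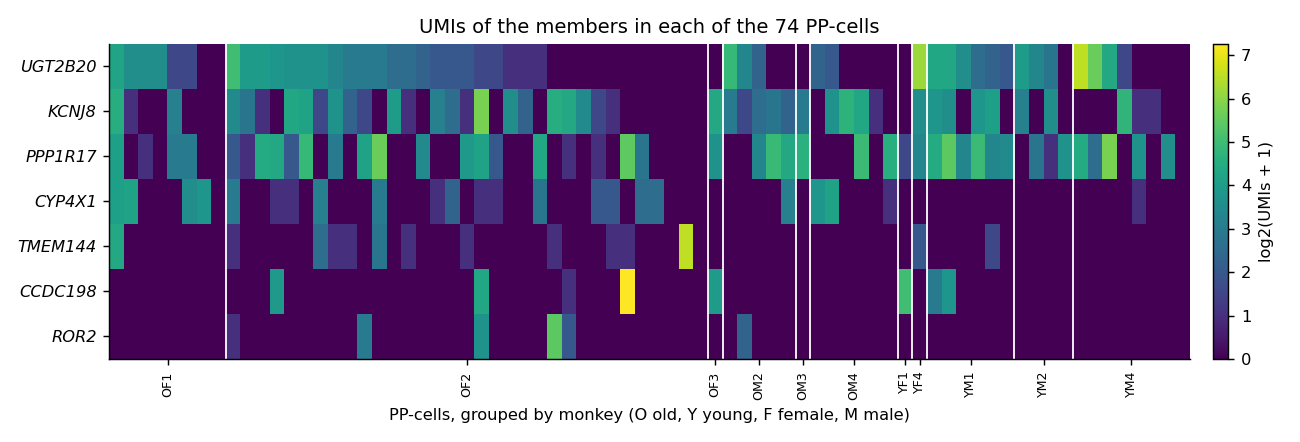
UMIs of the 7 members in each of the 74 PP-cells, coloured as log2(UMIs + 1), with cells grouped by monkey and white lines between monkeys. UGT2B20, KCNJ8 and PPP1R17 are spread over the cells of most monkeys, CYP4X1 lies mostly in cells of old monkeys (22 of its 23 cells), and TMEM144, CCDC198 and ROR2 each have 1 bright cell in OF2.

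Across the 74 PP-cells the 21 pairs of members had Pearson's r of log2(CPM + 1), centred on the monkey, between -0.22 and 0.32. The median was -0.02 and 7 pairs were above 0. The cells of a monkey share their libraries, and sparse counts limit r, so these values are given as a description. The highest value was that of CCDC198 with PPP1R17, where all 8 cells with CCDC198 also held PPP1R17. The next was KCNJ8 with ROR2 at 0.26, where all 6 cells with ROR2 held KCNJ8, and the lowest was KCNJ8 with PPP1R17, with 26 cells holding both of 46 and 45. Without OF2, which left 41 cells, the first of these values was 0.04 and that of KCNJ8 with ROR2 was -0.02, so both rested on cells of OF2, while TMEM144 with KCNJ8 went from -0.05 to 0.35 and became the highest. Over those 41 cells the 21 values ran from -0.27 to 0.35 with a median of 0. Over all 74 cells UGT2B20 had r of 0.10 with KCNJ8 and 0.05 with PPP1R17. With PPY the members had r from -0.23 for CYP4X1 to 0.15 for ROR2 within PP-cells.

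**Figure D4:**
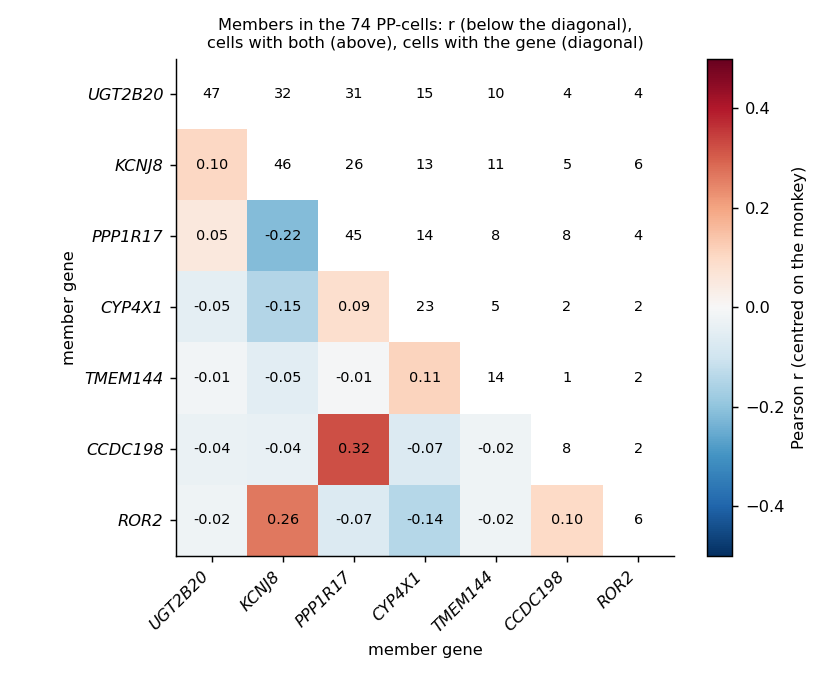
Co-expression of the members in the 74 PP-cells, with Pearson's r of log2(CPM + 1) centred on the monkey below the diagonal, the number of cells with both genes above it and the number with the gene on it. Most of the 21 values lie near 0, from -0.22 for KCNJ8 with PPP1R17 to 0.32 for CCDC198 with PPP1R17.

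Depth differed between PP-cells with and without a member. PP-cells with UGT2B20 had a median of 47372 UMIs and those without it 37189, and for PPP1R17 the medians were 53824 and 39156. For KCNJ8 they were nearly equal, at 46394 and 44522. The 16 PP-cells with PPY under 2 times the next hormone came from 4 monkeys and the other 58 from 11, and they were not compared within monkeys. Pooled levels were lower in the 16 cells for UGT2B20 (48.8 against 185 CPM), KCNJ8 (47.6 against 146 CPM) and ROR2 (8.33 against 20.6 CPM). They were higher there for TMEM144 (114 against 13.6 CPM), CCDC198 (197 against 28.9 CPM), PPP1R17 (212 against 172 CPM) and CYP4X1 (55.9 against 34.3 CPM). For TMEM144 and CCDC198 this rested on single cells of OF2 among the 16, with 93 TMEM144 and 152 CCDC198 UMIs. Just outside the boundary, in the 6 cells in which PPY was second and the highest hormone under 2 times PPY, UGT2B20 had no UMI, while KCNJ8 was found in 2 and PPP1R17 in 3.

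The genes most like each member were sought over 49 sums of monkey and type by Pearson's r of log2(CPM + 1) among 11235 genes at 5 CPM or more in some type. For UGT2B20 they were KLHL4 (0.77), SSC5D (0.66) and TP53I11 (0.64), and KLHL4 was at 20.4 CPM in PP-cells and at most 0.966 CPM in the others. For KCNJ8 they were the unnamed gene ENSMFAG00000001290 (0.85), AKAP12 (0.76) and ETV1 (0.71), the first at 77.4 CPM in PP-cells and 24.4 in δ-cells. For PPP1R17 they were SERPINA1 (0.71), CLU (0.70) and FGFR1 (0.67), with SERPINA1 at 1834 CPM in PP-cells, 542 in δ-cells, 276 in α-cells and 91.0 in β-cells. For CYP4X1 they were CUX2 (0.90), FGG (0.74) and FSIP2 (0.68), with FGG, a fibrinogen chain, at 38.3 CPM in PP-cells. CUX2 was at 8.83 CPM in PP-cells and at most 0.132 CPM in the others. CYP4X1 itself was at 0 in 8 of 16 monkeys in β-cells and 9 of 11 in δ-cells, so its values also rest on few sums.

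The 3 sparse members were at 0 in the PP-cells of 3 (TMEM144), 4 (CCDC198) and 4 (ROR2) of the 6 monkeys. Few PP-cell sums thus lie behind their likeness. TMEM144 was most like WDR49 (0.65), DKK1 (0.63) and ASCC2 (0.63), CCDC198 like RND1 (0.64), ENSMFAG00000032887 (0.62) and PABPC5 (0.61), and ROR2 like TMCO2 (0.60), IGSF3 (0.58) and MAGED2 (0.58). DKK1, a secreted WNT inhibitor, was at 28.0 CPM in PP-cells and at most 0.176 CPM in the other types, whereas IGSF3 was at 0 in the PP-cells of the 6 monkeys. Among the members themselves UGT2B20 with PPP1R17 had the highest r over these sums, 0.54, and CCDC198 with CYP4X1 the lowest, -0.08.

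Young and old monkeys were compared next. The age of the animal was not used to choose the genes. In PP-cells 6 members were tested in the sums of 4 old and 2 young monkeys with sex as covariate, and none was called (edgeR), as for 0% of 6568 genes. Planted changes were not recovered in simulated data of this design, so the lack of calls does not show that the members were alike at both ages. At an unadjusted p under 0.05 there were 394 genes.

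CYP4X1 gave the largest age difference by share of cells in PP-cells. It was found in 22 of 54 old PP-cells (40.7%) and in 1 of 20 young PP-cells (5.0%). Its level was 35.4 to 117 CPM in the 4 old monkeys and 0 and 2.13 CPM in the young ones, groups that did not overlap. The same held for 5.56% of genes higher in old monkeys in this comparison and 13.7% in either direction. The log2 fold change was 5.63 ± 1.82 (SE, adjusted p = 0.585, edgeR). Per monkey the share of cells was 40.6% ± 14.2 in 4 old and 6.25% ± 8.84 in 2 young monkeys (p = 0.133, exact permutation test, the smallest p this design allows). YM2, with 4 PP-cells, had no CYP4X1 UMI either. Both young monkeys were male, and the old males OM2 and OM4 were at 38.3 and 88.3 CPM.

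PPP1R17 lay the other way in the share of cells, with 29 of 54 old PP-cells (53.7%) and 16 of 20 young ones (80.0%), and per monkey 49.5% ± 11.5 against 81.2% ± 26.5 (p = 0.133, exact permutation test). Its CPM values overlapped between the ages. ROR2 was found in 6 of 54 old and 0 of 20 young PP-cells. UGT2B20 was found in 61.1% of old and 70.0% of young PP-cells, KCNJ8 in 66.7% and 50.0%. Members detected per PP-cell at fixed depth were 1.69 ± 0.646 in 4 old and 1.85 ± 0.678 in 2 young monkeys (p = 0.933, exact permutation test).

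In α-, β- and δ-cells the age comparison had 16, 16 and 11 monkeys. Of the 4, 2 and 2 members tested, none was called with edgeR, where 0%, 0.0470% and 0% of genes were called (in β-cells 0.0376% higher in old monkeys). At an unadjusted p under 0.05 there were 886, 589 and 209 genes. CCDC198 differed by a log2 fold change of 1.78 ± 0.79 in α-cells (adjusted p = 0.705) and 1.91 ± 0.84 in β-cells (adjusted p = 0.883, edgeR). PPP1R17 differed by 0.81 ± 0.61 in α-cells (adjusted p = 0.839, edgeR).

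KCNJ8 in β-cells was the member closest to the threshold. In old monkeys its level was 4.16 CPM in OF1, 21.5 in OF2, 11.4 in OF3, 3.67 in OF4, 4.40 in OM1, 3.42 in OM2, 10.8 in OM3 and 1.82 in OM4. In young monkeys it was 1.56 CPM in YF1, 0.129 in YF4, 1.21 in YM1, 0.32 in YM4 and 0 in YF2, YF3, YM2 and YM3. Every old monkey was above every young monkey, which held for 2 of the 10628 genes tested, KCNJ8 and TNFRSF1A (0.0188% higher in old), a pair named after their values were seen. The log2 fold change was 3.91 ± 0.80 (SE, adjusted p = 0.0852, edgeR), so the difference did not pass the threshold. It did with DESeq2 (adjusted p = 0.000628) and with no filter on low counts (adjusted p = 0.0477, edgeR), and over the 16 fits that each left out 1 monkey it was between 0.0509 and 0.213 (edgeR).

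Cells were also counted over all monkeys of an age, although cells are not replicates of age. A KCNJ8 UMI was found in 80 of 683 old β-cells (11.7%) and 13 of 536 young ones (2.43%). Of the 80, 19 each came from OF1, OF2 and OF4. Per monkey the share ran from 3.57% to 27.5% in old and from 0% to 9.21% in young monkeys. At 10000 UMIs per cell there were 30 of 680 old cells (4.41%) and 0 of 533 young ones, and the median depth of β-cells ran from 68440 to 112670 UMIs over old and from 30098 to 85549 over young monkeys. Of 24 β-cells with 5 or more KCNJ8 UMIs, 23 were from old monkeys, with 8 in OF4, 7 in OF2 and 0 in OM4. Without the highest cell of each monkey the old levels were 0 to 17.8 CPM (median 2.74) and the young 0 to 0.922 CPM (median 0), and the groups overlapped, since OF3 and OM4 had KCNJ8 in 1 β-cell each.

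**Figure D5:**
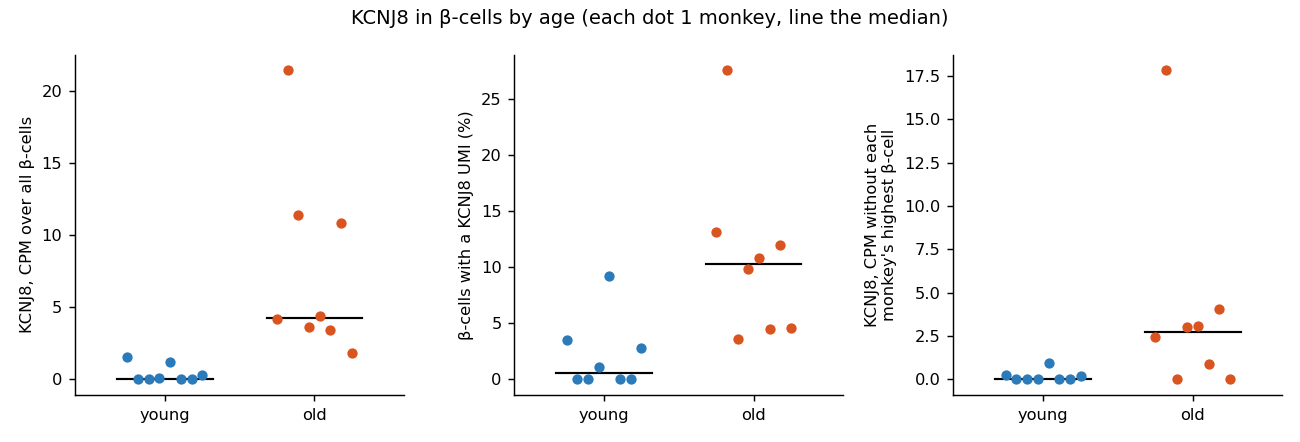
KCNJ8 in β-cells of 8 young and 8 old monkeys, with each dot 1 monkey and each line the median, as CPM over all β-cells, as the percentage of β-cells with a UMI, and as CPM without the highest cell of each monkey. The old monkeys lie at 1.82 CPM or more and the young at 1.56 CPM or less in the first panel, OF2 is highest in all 3, and the groups overlap in the other panels.

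Markers of other cells were measured beside this difference. PPY in β-cells was at 31.2 to 4507 CPM in old (median 392) and 14.7 to 2045 CPM in young monkeys (median 159), and OF2 was highest for both PPY and KCNJ8. KCNJ8 per 10000 PPY UMIs was 47.6 in the β-cells of OF2 and 15.9 in its PP-cells. The summed stellate and pericyte list was at 3.93 to 183 CPM in old and 0.408 to 163 CPM in young β-cells, 4 of the 24 β-cells rich in KCNJ8 exceeded 2000 CPM of it against 6 of the other 1195, and 1 of the 24 held ABCC9. Without the β-cells above 2000 CPM the old monkeys were at 1.82 to 21.5 CPM and the young at 0 to 1.21, still apart. With strict types, in which the leading hormone was at least 2 times the next and at 10000 CPM or more, OM4 fell to 0 and the ranges were 0 to 24.5 and 0 to 1.34 CPM.

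In α-cells KCNJ8 was at 0.412 to 9.44 CPM in old and 0.337 to 4.77 CPM in young monkeys, and the log2 fold change was 0.47 ± 0.65 (SE, adjusted p = 0.916, edgeR). In δ-cells it was -0.53 ± 1.02 (adjusted p = 1.00, edgeR). The groups of both types overlapped for every tested member, beside 0.0155% of genes in α-cells without overlap, all higher in old monkeys, and 0.432% in δ-cells without overlap and higher in old monkeys (0.632% in either direction). Whether the age difference of β-cells differed from those of α- and δ-cells was not tested.

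Sex was read from the same fits in α- and β-cells. No member was called in either type (edgeR), as for 0% of genes in both, and 753 and 424 genes had an unadjusted p under 0.05. UGT2B20 in α-cells differed between males and females by a log2 fold change of -1.10 ± 0.59 (SE, adjusted p = 0.905) and CCDC198 by -1.50 ± 0.78 (adjusted p = 0.902, edgeR). No member was called for a difference of the age change between the sexes (edgeR), where 0.00774% of genes were called in α-cells and 0% in β-cells, with 698 and 434 genes at an unadjusted p under 0.05.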

How the data were processed

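Deposited values were whole-number UMI counts per gene and cell. The library protocol is called a modified SMART-seq2 in the labels and a modified tagged reverse transcription in the methods, and the submitters' processing notes name CASAVA 1.8 and TopHat2 2.0.12. Per the methods, the authors aligned reads to Ensembl Macaca_fascicularis_5.0 and counted uniquely mapped reads with HTSeq, each UMI once. Members and lists were chosen with earlier results of these data known.

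Age and sex came from the series' design text. From the deposited counts, 95 spike-in RNAs (5.41% of UMIs) were left out, cells were typed by the highest hormone count (no ties), and counts were summed per monkey and type (Python 3.11.15, scipy 1.17.1). Sums of at least 5 cells were compared with edgeR 4.0.16 (quasi-likelihood test, TMM factors, filterByExpr, Benjamini-Hochberg adjustment over all genes tested, threshold 0.05) in R 4.3.3, with the monkey in the model between types and sex as covariate for age. DESeq2 1.42.0, other filters, cell minimums, strict types, thinning and leaving out each monkey were alternatives. The edgeR steps were tested on simulated data, where planted changes were mostly recovered between α- and β-cells and for age in α- and β-cells, seldom for age in δ-cells and not in PP-cells. The fit with PP-cells, and the alternatives without PP-cells rich in stellate markers, without the highest cell and without the monkey term, were chosen after seeing the data. Intervals and floors cover counting error only.

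Named genes were the members, the hormones, the 3 genes most like each member, and the family genes at 5 CPM or more in PP-cells, at most 6 per list. CARTPT, AQP3, LMO3, UGT8, KCNJ11, WNT5A, ROR1, PRKG1, PRKG2 and TNFRSF1A were named after their values were seen.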

Additional observations from a re-analysis of the deposited data

Results flagged for a closer look

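In 24 of 48 groups of monkeys of 1 age and type, 1 monkey lay apart from the others by Dixon's test at the 95% level, which flags about 1 in 20 groups by chance where values are normal. That rate does not hold here: in 8 of the 24 groups every other monkey was at 0, so that a single value above 0 was enough, and most values came from few UMIs.

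UGT2B20 stood apart at 2.46 CPM in α-cells of YF4 and at 14.5 CPM in β-cells of YF2, which rested on 9 UMIs in 3 of 11 cells. It was at 10.8 CPM in δ-cells of OM2. TMEM144 stood apart at 0.770 CPM in α-cells of YF4, 1.23 CPM in α-cells of OF2, 0.603 CPM in β-cells of YM1 and 15.6 CPM in δ-cells of YF3.

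CCDC198 stood apart at 124 CPM in PP-cells of OF2, 11.4 CPM in α-cells of OF1 and 23.7 CPM in β-cells of OM3. In δ-cells it was at 2.13 CPM in YM3 and 1.42 CPM in OF1. PPP1R17 set YM3 apart from the other young monkeys in β-cells (3.67 CPM) as well as in δ-cells (130 CPM).

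ROR2 stood apart at 0.365 CPM in α-cells of YF1, 3.21 CPM in β-cells of YF2 and 0.605 CPM in β-cells of OM4. In δ-cells it was at 26.0 CPM in YM2 and 43.5 CPM in OM4. CYP4X1 stood apart at 1.84 CPM in α-cells of YM4, 1.71 CPM in β-cells of YM2 and 7.87 CPM in β-cells of OM4. In δ-cells it was at 5.44 CPM in YF1 and 53.6 CPM in OM4.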

How the results depend on the processing

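The calls of KCNJ8 and PPP1R17 between α-, β- and δ-cells held under each alternative run, with edgeR or DESeq2 adjusted p up to 0.0456. With at least 10 cells per sum only OF2 remained for PP-cells, and the mean CPM there was 74.7 for TMEM144, 124 for CCDC198 and 43.4 for ROR2; age in PP-cells could then not be fitted. Members detected per PP-cell, old minus young, were -0.161 at fixed depth, 0.0023 without thinning and from -0.397 to 0.125 with 1 monkey left out (0.125 without OM4). The number of members called by age in β-cells was 0, but 1 (KCNJ8) with DESeq2 and 1 with no filter on low counts, where 0.368% and 0.121% of all genes were called in place of 0.0470%. With strict types and with thinning KCNJ8 was not among the genes tested there. Of all other values, CCDC198 became lower in δ- than in β-cells without the monkey term (adjusted p = 0.0181, edgeR), an alternative chosen after seeing the data.

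Monkeys of 1 sex share numbers across ages only by name. Their deviations from group means correlated between -0.0803 and 0.134, and 4 of 8 in α-cells and 2 of 8 in β-cells correlated best with their own number. With that replicate block 0 members were called by age in α-cells and 0 in β-cells, where KCNJ8 differed by 3.99 (adjusted p = 0.272, edgeR). PP-cells of 6 monkeys, 33 of the 74 from OF2, limit every statement on age in them.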
